A study of Mus musculus with 4 samples.

Results

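Transforming growth factor beta (TGF-beta) and activin signaling was followed through 8 genes in single-cell RNA sequencing of MC38 tumors: the ligand genes Tgfb1, Tgfb2, Tgfb3 and Inhba, the receptor genes Tgfbr1 and Tgfbr2, the inhibitor gene Smad7 and the target gene Tgfbi. The genes were taken by symbol, and all 8 were found among the 32285 genes of the count tables. They belong to a list of 78 genes of the same pathway, whose other members are given by counts beside them. Cell classes that held the ligand mRNA and classes that held the receptor mRNA were compared across the 4 libraries.

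MC38 is a mouse colon adenocarcinoma line that was grown under the skin of C57BL/6 mice. The tumor cells were either wild type (WT) or carried the RAC1 A159V mutation, knocked into both copies of the endogenous gene by CRISPR-Cas9, and the mice had received either an IgG isotype control or an antibody to PD1. This gave 4 groups of 1 library each: WT IgG and WT anti-PD1 for the wild-type tumors, then A159V IgG and A159V anti-PD1 for the mutant ones. Where 4 values follow each other below, they stand in this order. The ages of the mice are given only as a range of weeks in the study's methods, the number of tumors behind each library is not given in the sources used here, and the mutant tumor cells came from an edited clone, so that the mutation and the clone cannot be told apart. CD45+ and CD45- cells had been separated with beads and mixed at a set ratio before loading, so the share of each class in a library reflects that mixing as well as the tumor.

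TGF-beta is secreted in a latent complex and is released by integrins and proteases. The active dimer binds TGFBR2, which recruits and phosphorylates TGFBR1, and the SMAD2 and SMAD3 proteins then carry the signal to the nucleus. Activin A, a dimer of the Inhba product, uses other receptors but the same SMAD2 and SMAD3, while SMAD7 is a feedback inhibitor of both branches. In tumors the pathway is best known for restraining T cells and NK cells and for driving fibroblasts to make matrix.

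In GRCm38, Tgfb3 lies at chr12:86056745-86079041 (minus strand), Tgfbr1 at chr4:47353222-47414931 (plus), Tgfbr2 at chr9:116084293-116175360 (minus) and Tgfbi at chr13:56609523-56639562 (plus). The 250 bases before the annotated start are shown for 3 ligand genes, because their levels per UMI peaked in different classes: Tgfb1 and Inhba in different myeloid classes and Tgfb2 in fibroblast-like cells. The sequences are from RefSeq (GRCm38.p6) and are written 5′ to 3′ on the strand of the gene, and capitals mark the TATA box letters TATAAA and the SMAD element CAGAC (or GTCTG on the other strand).
Tgfb1, chr7:25686752-25687001, plus strand: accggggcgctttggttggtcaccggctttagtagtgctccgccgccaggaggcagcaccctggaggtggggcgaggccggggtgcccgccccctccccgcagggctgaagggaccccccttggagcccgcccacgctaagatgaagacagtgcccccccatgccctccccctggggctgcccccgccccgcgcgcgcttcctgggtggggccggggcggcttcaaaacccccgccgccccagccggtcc
Tgfb2, chr1:186705990-186706239, minus strand: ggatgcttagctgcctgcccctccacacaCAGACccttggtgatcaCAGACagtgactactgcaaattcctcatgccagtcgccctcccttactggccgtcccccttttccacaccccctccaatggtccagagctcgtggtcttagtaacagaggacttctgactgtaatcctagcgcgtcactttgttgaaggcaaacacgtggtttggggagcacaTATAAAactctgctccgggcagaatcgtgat
Inhba, chr13:16011601-16011850, plus strand: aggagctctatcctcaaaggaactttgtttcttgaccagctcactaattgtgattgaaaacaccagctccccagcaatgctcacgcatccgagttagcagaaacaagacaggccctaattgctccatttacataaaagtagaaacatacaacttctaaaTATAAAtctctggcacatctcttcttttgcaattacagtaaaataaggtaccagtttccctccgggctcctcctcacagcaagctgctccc
The Tgfb2 window held TATAAA at 31 bases before the start and 2 copies of CAGAC at 204 and 221 bases before it. The Inhba window held TATAAA at 91 bases before the start and no CAGAC. The Tgfb1 window held none of the searched letters. Windows of this length were searched on both strands for TATAAA, which 12.4% of all 32851 windows held, for CAGAC, held by 42.2%, for the AP-1 site TGANTCA, held by 6.75%, for the cAMP response element TGACGTCA, held by 1.55%, and for the SMAD palindrome GTCTAGAC, held by 0.167%. None of these 5 motifs contains another. Of the 8 genes, 6 had a window in the table, and no window of these 6 genes held TGANTCA, TGACGTCA or GTCTAGAC. A match is a description of letters, not of binding.

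The libraries held 7802, 7430, 8685 and 9311 barcodes in the order given, and 6867, 6466, 7603 and 8248 cells were analyzed, with median depths of 3370 to 4170 UMIs (unique molecular identifiers, 1 per captured mRNA molecule) and median mitochondrial shares of 2.23% to 2.76%. Any pair of libraries shared 13 to 22 barcodes. Cells were clustered without the 8 genes and without the rest of the pathway list, and clusters were named by marker lists. Levels are given as CPM, counts of a gene's UMIs per 1e6 UMIs of a class in a library, with exact 95% Poisson intervals that cover counting error only. With 1 library per group no difference was tested between conditions, and every comparison below is between libraries.

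The class called tumor-like lacked the epithelial markers that a colon carcinoma label would call for. Krt8 was at 0.0992, 0.196 and 0.299 CPM in its cells of WT IgG, A159V IgG and A159V anti-PD1, and Krt18, Krt7, Krt19, Epcam and Cldn4 stayed at or under 1.82 CPM. The name rests on Rhox5, Prl2c2, Prl2c3 and Tm4sf1, with Rhox5 at 951.5, 1101 and 1063 CPM. The class had 2 main clusters in unequal proportions. One, led by Dynap, held 558, 2301 and 1626 cells of WT IgG, A159V IgG and A159V anti-PD1, and the other, led by Tafa1, held 1369, 267 and 234. The Tafa1-led cluster carried Rhox5 at 829.7 to 922.5 CPM, against at most 49.4 CPM in the fibroblast-like clusters with 50 or more cells of a library, and Col1a1 at 11.2 to 56.3 CPM, against 10210 CPM or more in them. The gap was narrower for Dcn, another fibroblast marker, at 80.6 to 338 CPM against 1428 CPM or more, and Col3a1 was at 26.8 to 222.8 CPM against 17910 CPM or more. It was nevertheless named fibroblast-like for 88.8% of its WT IgG cells when the WT anti-PD1 library was left out of the clustering, so tumor-like differences between A159V IgG and WT IgG are also given per cluster where the text sets out a ratio.

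The WT anti-PD1 library stood apart. It held 16 tumor-like cells against 1860 to 2568 in the other libraries and 1595 fibroblast-like cells against 147 to 183, and it was the library that held an endothelial-like class (181 cells). It also held few monocyte-like cells, 52 against 1053 to 1389. Its macrophage-like cells were mostly of a cluster led by Retnla and Mrc1 (1237 cells), whereas a cluster led by Cd72 and C1qa held 886, 736 and 757 cells of WT IgG, A159V IgG and A159V anti-PD1. Its neutrophil-like cells were also mostly of a separate cluster (558 cells). Of the clusters, 5 stayed unnamed. Among T and NK cells these were 2 clusters with 30, 249, 50 and 54 cells in the 4 libraries, which entered no class below. The other 3 are called by their leading genes: the Slfn4 cluster, shallow cells with monocyte markers, the Mmp8 cluster, with macrophage markers but Il7r among its leading genes, and the Rsad2 cluster, led by interferon-induced genes and carrying the tumor markers.

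Tgfb1, the TGF-beta ligand gene of most immune cells, had its highest level in the Slfn4 cluster of every library, at 549.6, 606.3, 317 and 364 CPM in the 4 libraries. It was apart from the next class by its interval in each. Monocyte-like cells had 342.5, 321, 237.5 and 207 CPM, second in all libraries but A159V anti-PD1, where NK-like cells came second. In WT anti-PD1 the monocyte-like value rested on 74 UMIs of 52 cells and overlapped with CD4 T-like cells, at 302 CPM. Without the 10 highest cells it was 108.5 CPM. NK-like cells held 228, 218, 194 and 229.9 CPM, and macrophage-like cells 222, 220.2, 176 and 160.0 CPM. The intervals of NK-like and macrophage-like cells overlapped in WT IgG, in WT anti-PD1 and in A159V IgG, so these classes were not told apart there. Tumor-like cells stood lower per UMI, at 56.6, 46.8 and 49.7 CPM in WT IgG, A159V IgG and A159V anti-PD1, and fibroblast-like cells at the end of the order, at 45.5, 24.8, 23.5 and 23.3 CPM in the 4 libraries. In WT IgG and in A159V anti-PD1 the tumor-like value was not apart from the class next below it.

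Levels per UMI and amounts per library were ordered differently, since tumor-like cells made up much of 3 libraries and carried many UMIs per cell. Of the 7758 Tgfb1 UMIs of WT IgG, 44.2% were in tumor-like cells, 17.9% in monocyte-like cells and 12.1% in macrophage-like cells. In A159V IgG, tumor-like cells held 60.5% of 6313 Tgfb1 UMIs, and in A159V anti-PD1 51.8% of 7702. In WT anti-PD1, with its 16 tumor-like cells, macrophage-like cells held the largest share, 36.1% of 4944 Tgfb1 UMIs. These shares depend on how many cells of each fraction were loaded.

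Tgfb2 encodes a ligand known from epithelium and mesenchyme. It was read at its highest level in fibroblast-like cells of every library, at 58.0, 79.4, 46.4 and 29.5 CPM in the 4 libraries. It was apart from the next class by its interval in all libraries but A159V anti-PD1, where B or plasma-like cells, with 12.1 CPM, overlapped. Tumor-like cells had 8.61, 5.36 and 5.79 CPM in WT IgG, A159V IgG and A159V anti-PD1, and endothelial-like cells of WT anti-PD1 had 19.5 CPM. In CD4 T-like cells no Tgfb2 UMI was counted in any library, and 3 counts would have been 8.75, 3.76, 22.2 and 10.6 CPM. Monocyte-like, macrophage-like, NK-like and conventional DC-like cells stayed at or under 2.47 CPM. By amount, tumor-like cells held 75.4%, 74.5% and 74.4% of the Tgfb2 UMIs of WT IgG, A159V IgG and A159V anti-PD1, while fibroblast-like cells held 95.3% of those of WT anti-PD1.

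Tgfb3, the third TGF-beta ligand gene, was spread over fibroblast-like cells, macrophage-like cells and the Mmp8 cluster. Fibroblast-like cells had 31.7, 28.1, 16.6 and 18.1 CPM in the 4 libraries. Macrophage-like cells had 19.5, 8.51, 24.2 and 18.0 CPM. Fibroblast-like and macrophage-like cells were apart by their intervals in WT IgG and WT anti-PD1 and overlapped in A159V IgG and A159V anti-PD1. T cell and NK-like classes held at most 12 Tgfb3 UMIs in any library.

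Inhba, which encodes the subunit of activin A, peaked in the Mmp8 cluster, at 502.5, 116, 664 and 816.5 CPM in the 4 libraries, and in neutrophil-like cells, at 382, 97.9, 743 and 629 CPM. The levels of these classes had overlapping intervals in WT IgG, WT anti-PD1 and A159V IgG. Inhba was not among the genes used for clustering, yet it was among the 10 leading genes of the Mmp8 cluster. The other classes were lower in 3 libraries, while in WT anti-PD1 the Slfn4 cluster overlapped. The Slfn4 cluster had 34.3, 86.9, 105 and 93.9 CPM. Monocyte-like cells had 27.9, 39.1, 85.3 and 92.8 CPM, macrophage-like cells 42.0, 54.4, 24.7 and 33.3 CPM, and fibroblast-like cells 46.0, 21.0, 42.9 and 20.3 CPM. Tumor-like cells had 18.1, 13.7 and 17.0 CPM in WT IgG, A159V IgG and A159V anti-PD1. NK-like cells held 0, 2, 2 and 1 Inhba UMIs in the 4 libraries, and gamma-delta T-like cells held 0, 0, 0 and 2.

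**Figure D1:**
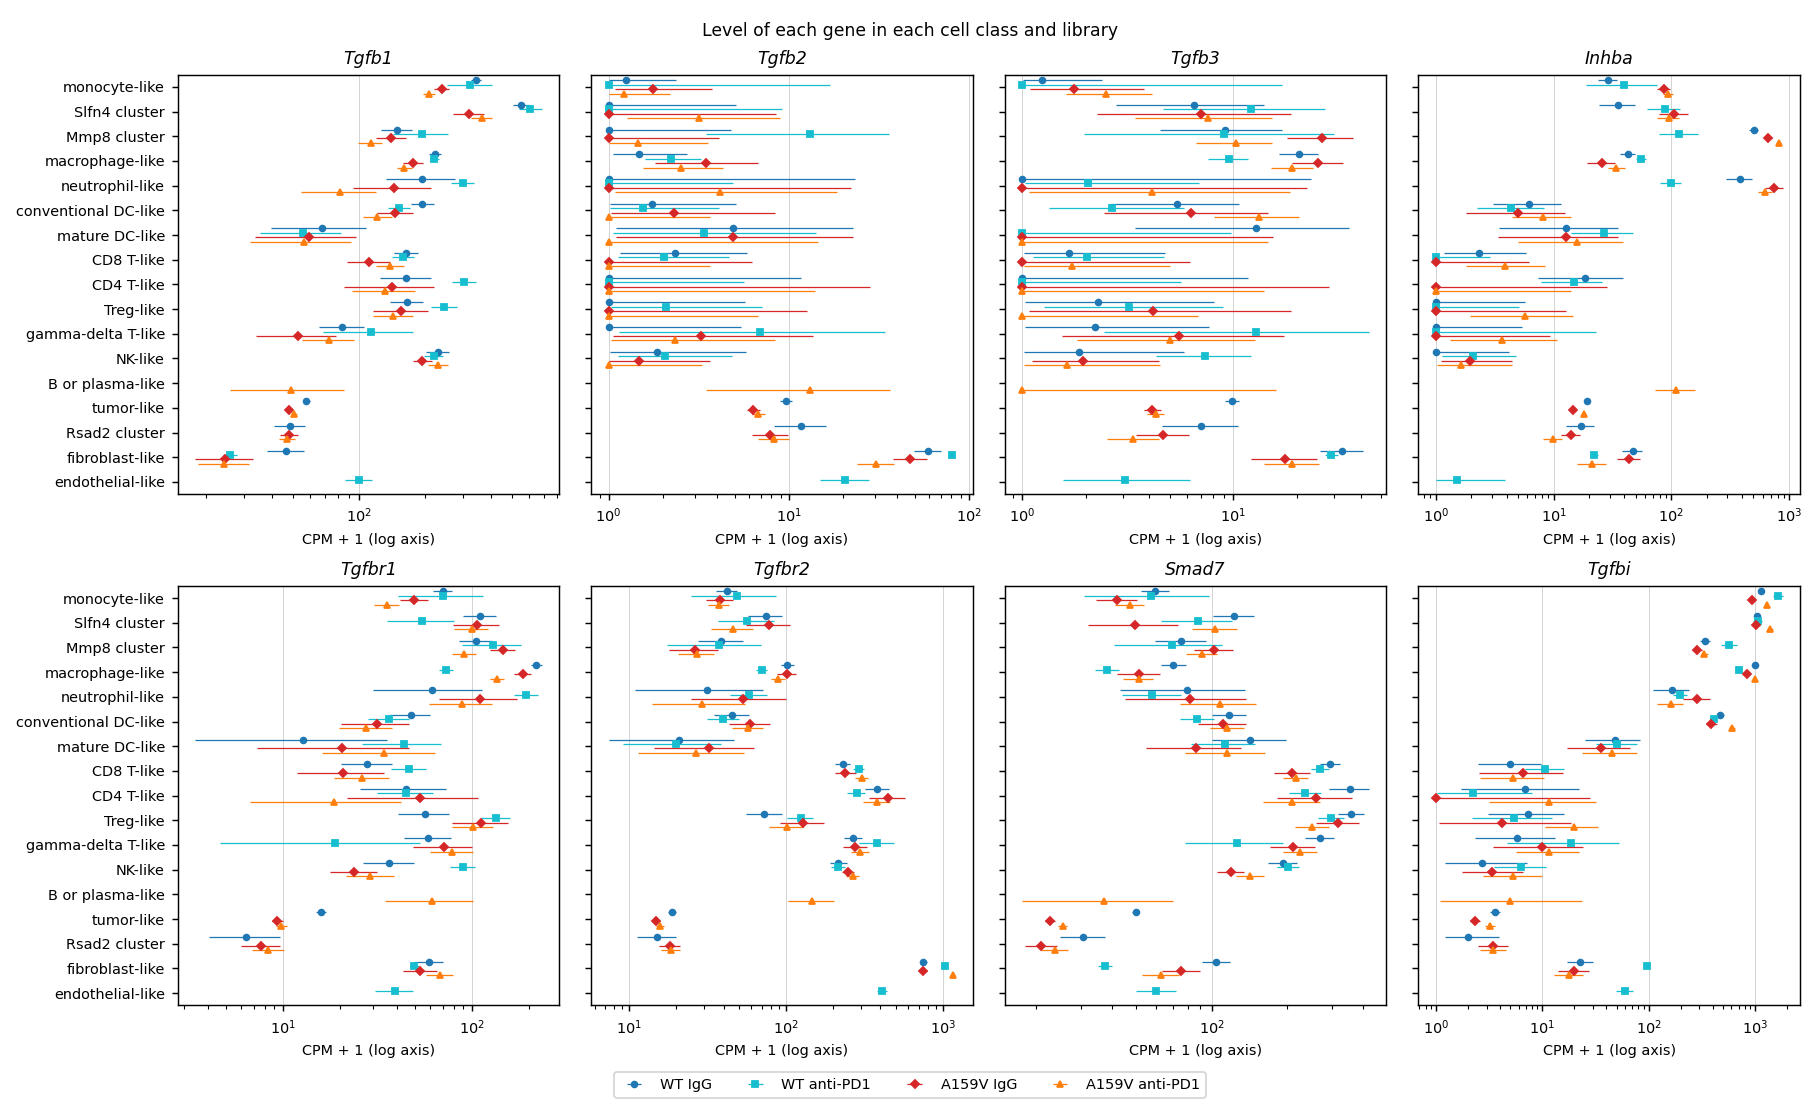
Level of each of the 8 genes in each cell class, 1 panel per gene, with CPM + 1 on a logarithmic horizontal axis, 1 symbol per library and bars for 95% Poisson intervals. Tgfb2 stands highest in fibroblast-like cells, Inhba in the Mmp8 cluster and neutrophil-like cells, Tgfbr2 in fibroblast-like cells and Tgfbi in monocyte-like cells, the Slfn4 cluster and macrophage-like cells.

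In several classes the Inhba UMIs lay in few cells. In neutrophil-like cells of WT IgG, 61 of 63 Inhba UMIs lay in the 10 cells with the most, and the level without those 10 cells was 12.1 CPM. In the Mmp8 cluster of WT anti-PD1, all 29 Inhba UMIs lay in 10 cells. The Mmp8 cluster of the other libraries was less concentrated, with 35.2%, 26.1% and 15.5% of the UMIs in the top 10 cells of WT IgG, A159V IgG and A159V anti-PD1, and it kept 325.5, 490.8 and 689.6 CPM without them. In the Slfn4 cluster 74.4% to 90.3% of the Inhba UMIs lay in the top 10 cells, so that its levels rested on 31 to 86 UMIs of a few cells. B or plasma-like cells of A159V anti-PD1 showed 27 Inhba UMIs, all in 1 cell.

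**Figure D2:**
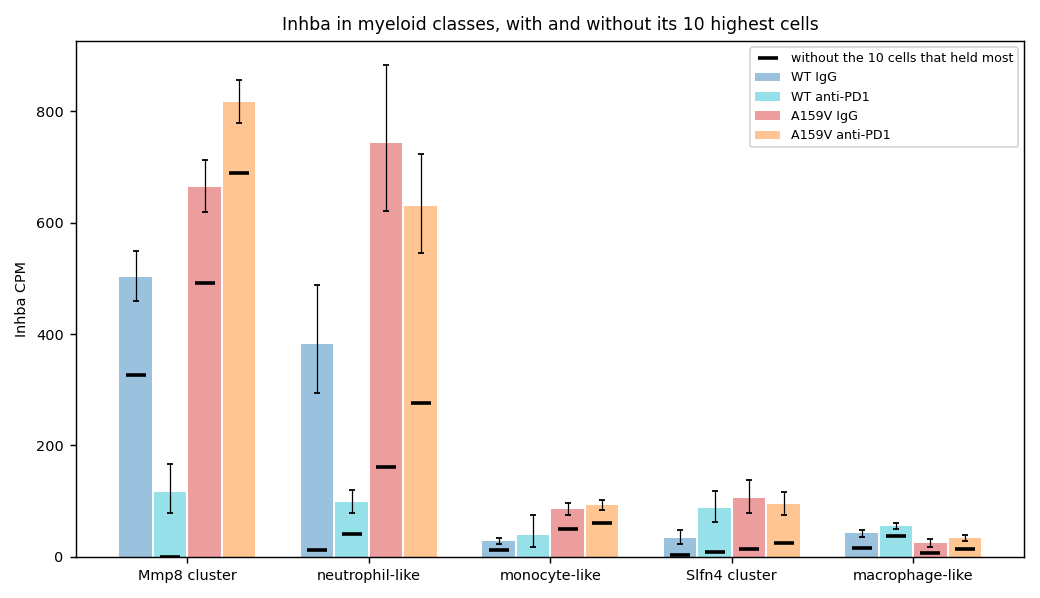
Inhba level in CPM in myeloid classes of each library, as bars over all cells of the class with lines for 95% Poisson intervals, and as black marks without the 10 cells that hold the most Inhba UMIs. The Mmp8 cluster kept 325.5 to 689.6 CPM in WT IgG, A159V IgG and A159V anti-PD1, whereas neutrophil-like cells of WT IgG had 382 CPM with them and 12.1 CPM without.

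At an equal depth of 1500 UMIs per cell, Inhba was detected in 29.6% of the Mmp8 cluster cells of WT IgG (exact binomial interval 24.0% to 35.7%), 13.0% of WT anti-PD1 (5.37% to 24.9%), 29.4% of A159V IgG (24.9% to 34.3%) and 37.0% of A159V anti-PD1 (33.1% to 41.0%). In CD8 T-like cells, which should lack the gene, the share was 0.34%, 0%, 0% and 0.32% of 294, 456, 176 and 313 cells, with upper bounds of 1.88%, 0.806%, 2.07% and 1.77%. The unthinned shares of the Mmp8 cluster were 34.2%, 12.0%, 28.8% and 44.5%. Inhba was thus read in a minority of the cells of its highest class, well above the share in CD8 T-like cells.

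By amount, Inhba was divided between tumor-like cells and the Mmp8 cluster. Tumor-like cells held 51.2%, 43.8% and 32.8% of the 2144, 2559 and 4175 Inhba UMIs of WT IgG, A159V IgG and A159V anti-PD1, and the Mmp8 cluster held 23.0%, 30.9% and 42.2%. Of the Inhba UMIs in immune cells alone, the Mmp8 cluster held 55.1%, 63.1% and 66.2%. In WT anti-PD1, fibroblast-like cells held 43.9% and macrophage-like cells 37.1% of 1190 Inhba UMIs.

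**Figure D3:**
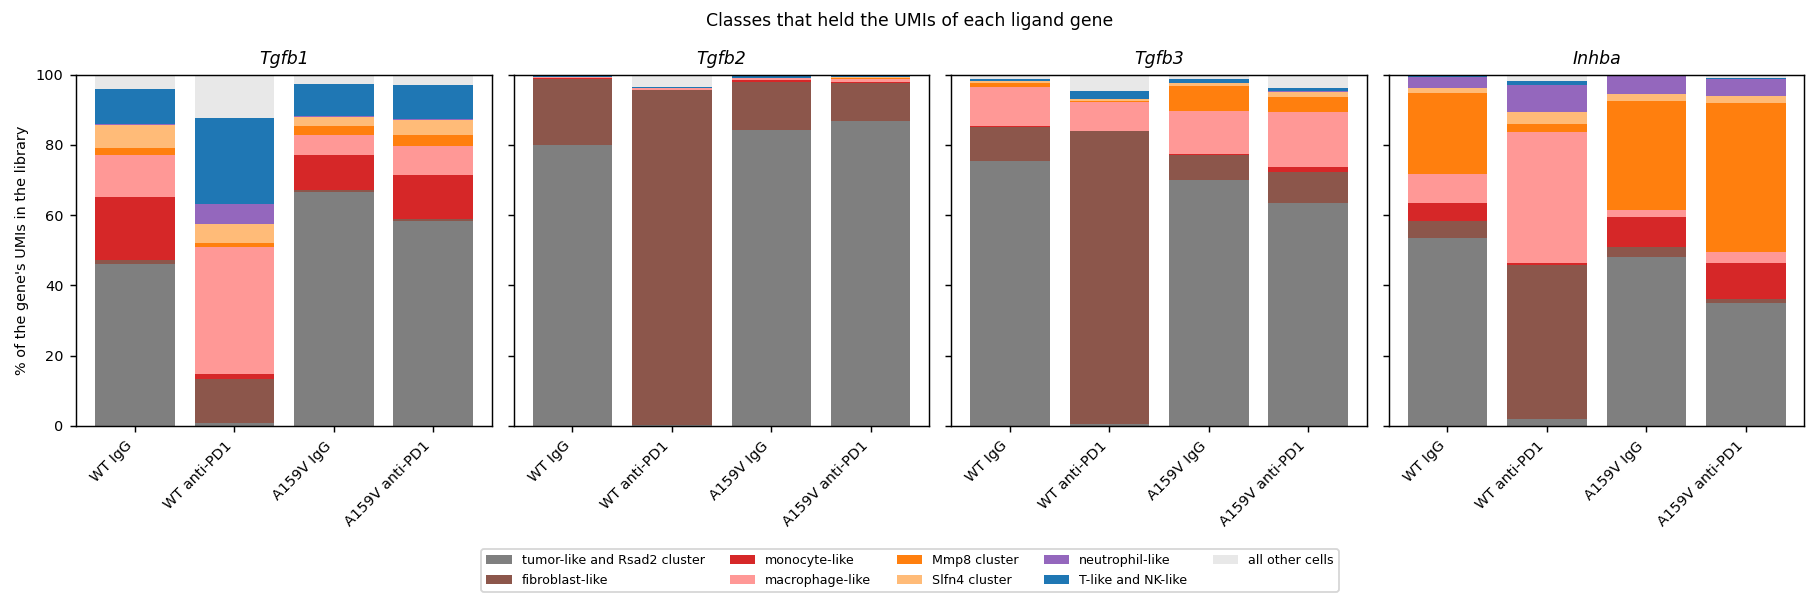
Share of the UMIs of each ligand gene (%) that each group of classes held in each library, as stacked bars that add to 100%. Tumor-like cells and the Rsad2 cluster, drawn together, held the largest block of Tgfb2 and Tgfb3 in 3 libraries, and fibroblast-like cells held 95.3% of Tgfb2 and 83.3% of Tgfb3 in WT anti-PD1.

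Tgfbr1, the type I receptor gene, was highest in macrophage-like cells of WT IgG, A159V IgG and A159V anti-PD1, at 217.5, 184 and 134 CPM. In WT anti-PD1 macrophage-like cells had 71.8 CPM, and neutrophil-like cells stood highest with 191.5 CPM. Treg-like cells had 55.0, 133, 111 and 100.1 CPM in the 4 libraries. In A159V IgG 16 of their 35 Tgfbr1 UMIs lay in 1 cell, and the level without the 10 highest cells was 19.0 CPM. The first place of macrophage-like cells was apart from the next class by its interval in WT IgG, and overlapped with the Mmp8 cluster in A159V IgG and with Treg-like cells in A159V anti-PD1. Tumor-like cells had 14.9, 8.35 and 8.78 CPM in WT IgG, A159V IgG and A159V anti-PD1.

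Tgfbr2, the ligand-binding type II receptor gene, was highest in fibroblast-like cells of every library, at 751, 1025, 746 and 1156 CPM in the 4 libraries, and apart from the next class by its interval in each. Most lymphocyte classes were also high. CD4 T-like cells had 382, 281, 445 and 378 CPM, gamma-delta T-like cells 266, 379.6, 275 and 296 CPM, CD8 T-like cells 228.5, 290.1, 238 and 304 CPM, and NK-like cells 214, 214, 248 and 266 CPM. Treg-like cells were lower than these, at 71.7, 123, 127 and 100.1 CPM. Endothelial-like cells of WT anti-PD1 had 409 CPM. Monocyte-like cells had 41.0, 47.8, 36.7 and 36.2 CPM, and tumor-like cells 17.8, 13.8 and 14.7 CPM in WT IgG, A159V IgG and A159V anti-PD1. Per UMI, both receptor genes were therefore lowest or near lowest in the tumor-like cells, whereas macrophage-like cells, CD4 T-like cells and fibroblast-like cells stood above them for both. Per cell the order differed in part, since tumor-like cells carried many UMIs each. In WT IgG, 1078 Tgfbr2 UMIs were counted over 1927 tumor-like cells and 424 over 960 macrophage-like cells. CD4 T-like cells held 131 over 155 cells and fibroblast-like cells 1682 over 147.

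Smad7, the inhibitor that TGF-beta itself induces, had its highest levels in lymphocytes. Treg-like cells stood highest, at 358, 297, 317 and 250.3 CPM in the 4 libraries, and their intervals overlapped with the next class in every library. CD4 T-like cells had 353, 234, 259.5 and 208.5 CPM and CD8 T-like cells 295, 269, 208 and 216 CPM. Macrophage-like cells had 69.3, 37.4, 50.4 and 50.03 CPM and tumor-like cells 48.7, 21.7 and 24.5 CPM in WT IgG, A159V IgG and A159V anti-PD1.

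Tgfbi, a secreted matrix protein gene that is a classical TGF-beta target, was highest in monocyte-like cells, the Slfn4 cluster and macrophage-like cells. Monocyte-like cells had 1126, 1641, 931.5 and 1303 CPM in the 4 libraries, the Slfn4 cluster 1041, 1057, 1016 and 1388 CPM, and macrophage-like cells 1004, 704, 831.5 and 993 CPM. The monocyte-like value of WT anti-PD1 came from 52 cells and was 876.9 CPM without the 10 highest. Conventional DC-like cells had 471, 410.2, 388 and 610.0 CPM. Fibroblast-like cells had 21.9, 95.7, 18.9 and 16.7 CPM. Free RNA from any 1 of the named classes used as sources could account for at most 18.5%, 2.36%, 11.9% and 64.4% of these levels. Sources were not added up, and the Slfn4 and Mmp8 clusters were not among them, so this is not a limit on all free RNA. Tumor-like cells had 2.61, 1.32 and 2.24 CPM in WT IgG, A159V IgG and A159V anti-PD1.

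The class orders above depended on how classes were drawn. The class with the highest level was the same in 20 of 32 gene and library combinations (62.5%) with more than 1000 genes per cell or with a gate on marker UMIs, and in 11 of 24 (45.8%) with WT anti-PD1 left out of the clustering. Cells of the Mmp8 cluster were joined to macrophage-like cells under several of these settings, including 99.0% to 99.7% of them in the last, which ended the cluster as a class of its own.

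The genes whose levels ran most like those of each of the 8, by Pearson correlation of log CPM over 60 profiles of a class in a library, are given as a description, since profiles of 1 library share its depth and its tumor. Inhba ran most like Ptgs2 (r = 0.89), the inducible prostaglandin synthase gene. Tgfbi ran most like Pid1 (0.95) and Csf1r (0.949), the receptor gene for macrophage colony-stimulating factor. Smad7 ran most like Cd28 (0.884), the T cell costimulatory receptor gene, and Tgfbr2 most like Cd55 (0.864). Tgfb1 ran most like Dusp2 (0.828), Tgfb2 most like Cdh2 (0.827), the N-cadherin gene, Tgfb3 most like Ahnak2 (0.788) and Tgfbr1 most like Snx18 (0.831).

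The libraries were then compared gene by gene within each class of at least 50 cells in both. A gene entered where 1 of the libraries had at least 20 CPM and 20 UMIs and where, in the library with the higher level, no other class exceeded it by more than 10 times, since such a low level could be free RNA. A difference was counted past 2-fold of CPM with 1 CPM added, and log2 ratios carry 95% intervals of counting error only. The comparisons of WT anti-PD1 and of A159V IgG share the WT IgG library, and A159V IgG is also the control of A159V anti-PD1, so the values below are side by side and not independent.

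Between A159V IgG and WT IgG, 57 combinations of 1 of the 8 genes and a class could be compared, and 3 were higher and 2 lower past 2-fold in A159V IgG. Over all genes and classes 3.46% of 78852 combinations passed 2-fold, 1.41% higher and 2.06% lower. The 5 were Inhba in monocyte-like cells and in the Slfn4 cluster and Tgfb3 in the Mmp8 cluster, all higher, and Smad7 in tumor-like cells and in the Slfn4 cluster, both lower.

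Inhba in monocyte-like cells was 85.3 CPM (223 UMIs, 74.5 to 97.2) in A159V IgG and 27.9 CPM (113 UMIs, 23.0 to 33.6) in WT IgG, a log2 ratio of 1.58 (1.26 to 1.90). Without the 10 cells with the most Inhba the levels were 50.5 and 12.8 CPM. The share of monocyte-like cells with Inhba at equal depth was 4.65% (3.39% to 6.22%) in A159V IgG and 2.61% (1.74% to 3.74%) in WT IgG, so its intervals overlapped while those of the CPM did not. In A159V anti-PD1 the monocyte-like level was 92.8 CPM.

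The Slfn4 cluster, the Mmp8 cluster and neutrophil-like cells were the other classes that passed the minimum values for Inhba. Set against WT IgG, the log2 ratio of A159V IgG was 1.59 (0.96 to 2.22) in the Slfn4 cluster, from 52 and 31 UMIs, 0.40 (0.24 to 0.56) in the Mmp8 cluster and 0.96 (0.53 to 1.39) in neutrophil-like cells. Monocyte-like cells and the Slfn4 cluster entered the comparison only through A159V IgG, where they were high, so the shared direction of the classes that entered is not a result. Macrophage-like cells, left out by the limit on other classes, had 24.7 CPM (50 UMIs) in A159V IgG and 42.0 CPM (177 UMIs) in WT IgG, the opposite direction. In neutrophil-like cells the WT IgG level rested on the 10 cells named above.

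Smad7 lay the other way. In tumor-like cells it was 21.7 CPM (1774 UMIs) in A159V IgG and 48.7 CPM (2946 UMIs) in WT IgG, a log2 ratio of -1.13 (-1.21 to -1.05). Within the Dynap-led cluster the values were 20.8 and 25.0 CPM, a log2 ratio of -0.26 (-0.39 to -0.12), and within the Tafa1-led cluster 38.4 and 62.8 CPM, a log2 ratio of -0.70 (-0.91 to -0.48). The direction was thus the same in each cluster, and neither cluster alone passed 2-fold. Col1a1, a fibroblast marker, was 18.6, 7.18 and 6.45 CPM in tumor-like cells of WT IgG, A159V IgG and A159V anti-PD1, and Dcn was 247, 76.1 and 52.7 CPM. Their part in the Smad7 difference was not tested. In the Slfn4 cluster Smad7 was 48.5 CPM (24 UMIs) in A159V IgG and 122 CPM (110 UMIs) in WT IgG, a log2 ratio of -1.31 (-1.93 to -0.68). Over the classes compared, the interval of Smad7 lay below 0 in 8 of 13 and above 0 in 1, the Mmp8 cluster. The share of such intervals over all genes is not given here, so the count is a description and not a result about Smad7.

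Tgfb1 did not pass 2-fold in any class of this comparison, but its interval lay below 0 in 7 of 12 classes and above 0 in none. This count too is given without a share over all genes and is a description. The log2 ratio of Tgfb1 was -0.79 (-1.05 to -0.53) in the Slfn4 cluster, -0.53 (-0.66 to -0.39) in monocyte-like cells, -0.33 (-0.51 to -0.16) in macrophage-like cells and -0.27 (-0.34 to -0.21) in tumor-like cells. Per cluster of tumor-like cells it was -0.10 (-0.19 to -0.001) in the Dynap-led and -0.07 (-0.26 to 0.11) in the Tafa1-led cluster. Tgfbr2 in fibroblast-like cells had a ratio of -0.01 (-0.11 to 0.09). Tgfb3 in the Mmp8 cluster was 25.2 CPM (30 UMIs) in A159V IgG and 8.14 CPM (8 UMIs) in WT IgG, a log2 ratio of 1.52 (0.50 to 2.54). It was 9.26 CPM (20 UMIs) in A159V anti-PD1, lower than A159V IgG by a log2 ratio of -1.35 (-2.11 to -0.60). Both differences entered only through A159V IgG, where Tgfb3 was high, since WT IgG and A159V anti-PD1 were under 20 CPM. In A159V IgG and WT IgG, Tgfb3 was 16.6 and 31.7 CPM in fibroblast-like cells, the opposite direction, and 24.2 and 19.5 CPM in macrophage-like cells.

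**Figure D4:**
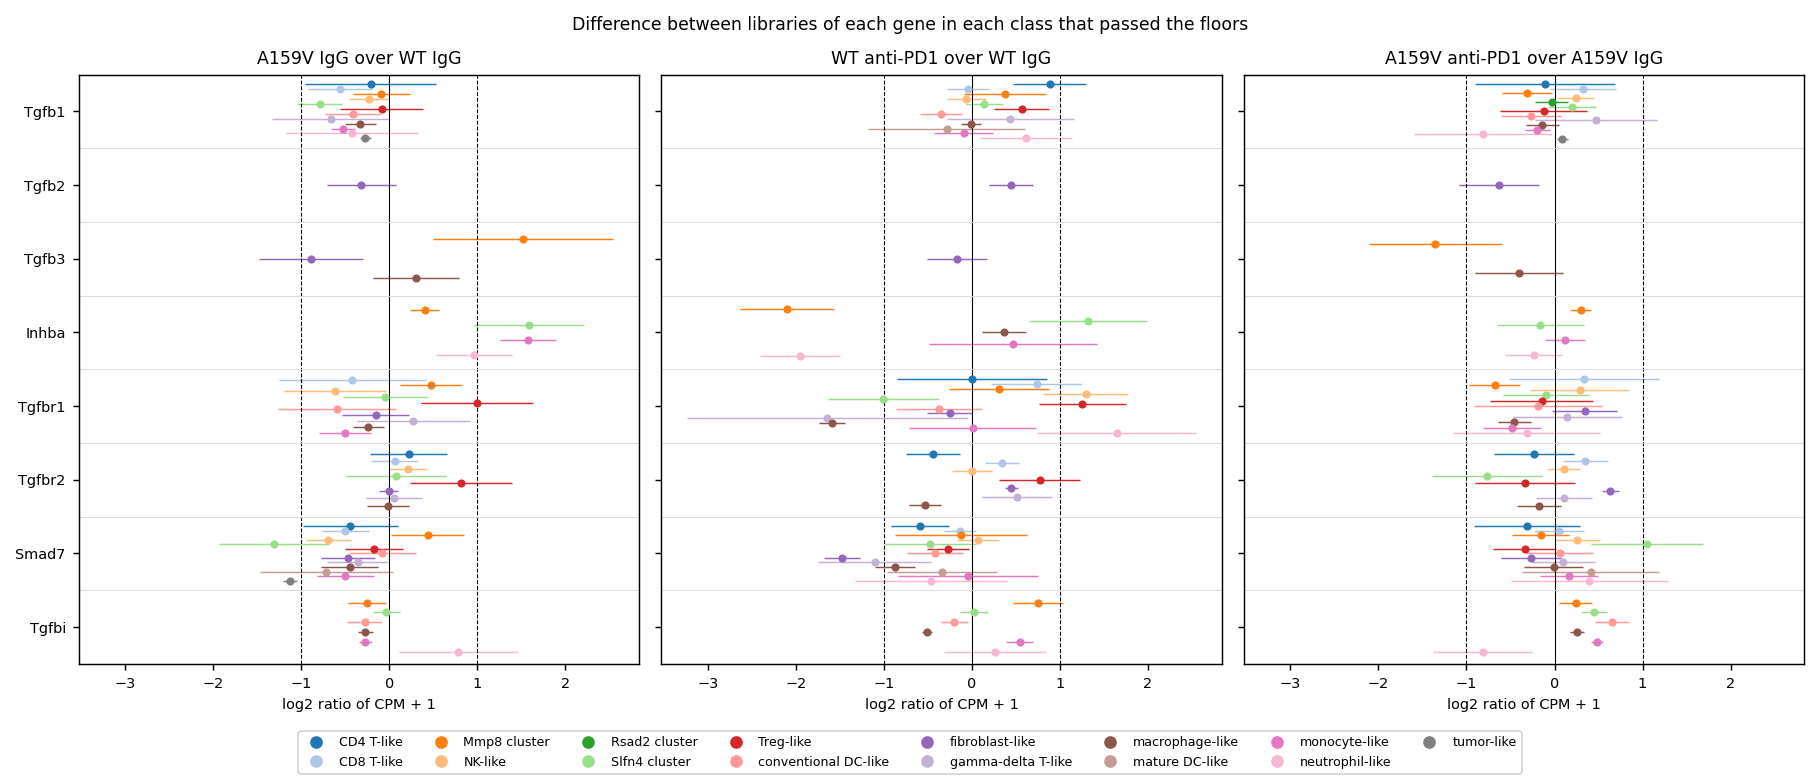
Log2 ratio of CPM + 1 for each of the 8 genes, 1 panel per comparison of 2 libraries and 1 point per class in which the gene passed the minimum values, colored by class, with lines for 95% intervals of counting error and dashed lines at 2-fold. Points spread widest in the comparison of WT anti-PD1 with WT IgG, where Inhba in the Mmp8 cluster reaches -2.10 and Tgfbr1 in neutrophil-like cells 1.64.

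The rest of the pathway list is shown for the tumor-like cells. Of 27 pathway genes compared there, none was higher and 5 were lower past 2-fold in A159V IgG, among them Smad7, Ldlrad4, Smad3 and the receptor gene Acvr1, which was chosen after its value was seen. Over all 6553 genes of this class, 92 were higher and 241 lower, 5.08% in all. Acvr1 had a log2 ratio of -0.58 (-0.67 to -0.48) in the Dynap-led and -0.29 (-0.44 to -0.13) in the Tafa1-led cluster. Ldlrad4, a membrane inhibitor of SMAD signaling, was 7.41 CPM in A159V IgG and 73.3 CPM in WT IgG, a log2 ratio of -3.14 (-3.25 to -3.03), and it was lower in both clusters, by -2.03 (-2.19 to -1.88) in the Dynap-led and -1.91 (-2.17 to -1.66) in the Tafa1-led cluster. Smad3, a signal transducer, was 9.95 and 26.4 CPM, a log2 ratio of -1.32, but in the Tafa1-led cluster it was 33.5 and 33.4 CPM. In the Dynap-led cluster Smad3 had a ratio of -0.71 (-0.88 to -0.53). For each of these genes the ratio over the whole class was larger than in either cluster, and the proportions of the clusters differed between the libraries.

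**Figure D5:**
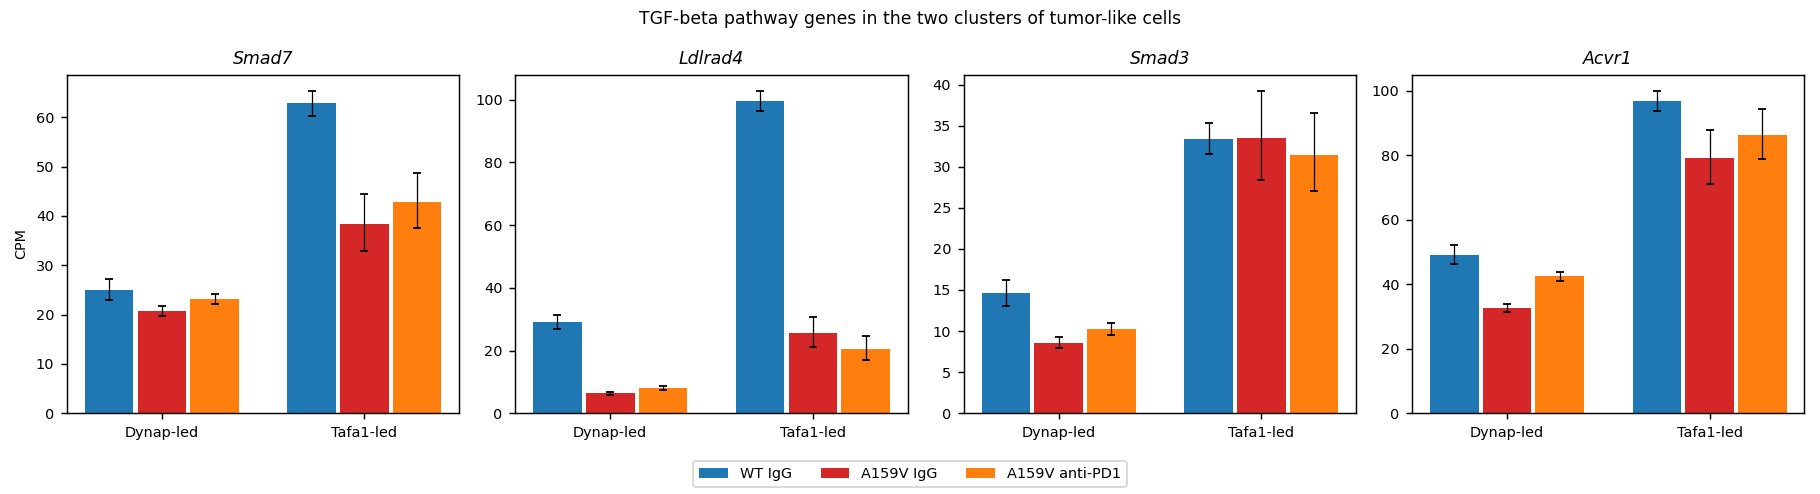
Level in CPM of 4 pathway genes in the Dynap-led and the Tafa1-led cluster of tumor-like cells, with 1 bar per library and lines for 95% Poisson intervals. Ldlrad4 is lower in both A159V libraries than in WT IgG in each cluster, and Smad3 in the Tafa1-led cluster is 33.4 CPM in WT IgG and 33.5 and 31.5 CPM in A159V IgG and A159V anti-PD1.

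Over all classes, 409 combinations with a gene of the pathway list could be compared between A159V IgG and WT IgG, with 5 higher and 18 lower past 2-fold, beside the 1.41% and 2.06% of all combinations. This direction turned when WT anti-PD1 was left out of the clustering, to 26 higher and 10 lower of 317. The shares of all combinations under that setting are not given here, so the turn is a description and not a result about the pathway. By role, with all libraries in the clustering, 4 of 28 combinations of the ligands were higher and none lower, with a median log2 ratio of -0.11. Among the 4 were Inhba in monocyte-like cells and the Slfn4 cluster and Tgfb3 in the Mmp8 cluster. These entered only through A159V IgG, where they were high, so the direction of the ligands is not a result. For the inhibitors 6 of 119 combinations were lower and none higher, with a median of -0.23, and 8 of 107 of the target genes were lower and 1 higher, with a median of -0.09. The median over all genes of a class was between -0.05 and 0.08. Pmepa1, another inhibitor of SMAD signaling, was 9.38 and 52.9 CPM in macrophage-like cells of A159V IgG and WT IgG, a log2 ratio of -2.38 (-2.99 to -1.76). It entered only through WT IgG, where it was high. Ldlrad4 in macrophage-like cells had a ratio of -1.39 (-1.81 to -0.97). Gdf15, a stress-induced member of the ligand family, was higher in the same cells, at 164 and 61.9 CPM.

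Between WT anti-PD1 and WT IgG, 57 combinations of the 8 genes and a class could be compared, and 4 were higher and 7 lower past 2-fold in WT anti-PD1. Here 17.0% of all 73658 combinations passed 2-fold, 9.11% higher and 7.84% lower. The share of the 8 genes past 2-fold was near that background. Scaling by the median of ratios in place of total UMIs shifted whole classes of this comparison, by -0.20 in neutrophil-like cells to 0.43 in gamma-delta T-like cells.

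Tgfbr1 made up 6 of the 11. In macrophage-like cells it was 71.8 CPM (582 UMIs) in WT anti-PD1 and 217.5 CPM (917 UMIs) in WT IgG, a log2 ratio of -1.59 (-1.73 to -1.44). Different clusters held these cells: within the cluster led by Cd72 and C1qa the ratio was -1.26 (-1.60 to -0.91), and within the cluster led by Retnla and Mrc1 it was -0.31 (-0.81 to 0.19), from 1237 and 65 cells. The receptor was thus lower in the first cluster, and in the second the interval held 0. It was higher in neutrophil-like cells, at 191.5 CPM (182 UMIs) against 60.6 CPM (10 UMIs), a log2 ratio of 1.64 (0.74 to 2.55), although separate clusters held the neutrophil-like cells of the 2 libraries. Treg-like cells went the same way, with 133 against 55.0 CPM and a ratio of 1.25 (0.76 to 1.75), as did NK-like cells, with 88.2 against 35.4 CPM and 1.29 (0.81 to 1.77). Different clusters held most of these cells too: a Treg-like cluster led by Nckap5 and Lrrc32 held 197 cells of WT anti-PD1 and 14 of WT IgG, and an NK-like cluster led by Angpt1 held 402 and 12. Within the Treg-like cluster led by Foxp3 (69 and 210 cells) the ratio was 1.17 (0.38 to 1.95). In the Slfn4 cluster Tgfbr1 was lower, at 53.5 CPM (24 UMIs) against 108 CPM (98 UMIs). In gamma-delta T-like cells it was 17.8 CPM from 3 UMIs against 57.7 CPM from 48, a ratio of -1.64 (-3.24 to -0.05) that changed sign under 4 other ways of processing. An unnamed cluster that scored best for the gamma-delta T markers held 238 cells of WT anti-PD1 and 4 of WT IgG. Its cells entered no class, so they are not in this ratio.

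Inhba was lower in its highest classes of WT anti-PD1. In the Mmp8 cluster it was 116 CPM (29 UMIs of 83 cells) against 502.5 CPM (494 UMIs of 295 cells), a log2 ratio of -2.10 (-2.64 to -1.56). In neutrophil-like cells it was 97.9 against 382 CPM, a ratio of -1.95 (-2.41 to -1.49), but without the 10 highest cells it was 40.0 against 12.1 CPM, the opposite order. The Mmp8 cluster without them was 0 against 325.5 CPM. In the Slfn4 cluster Inhba was higher, at 86.9 against 34.3 CPM from 39 and 31 UMIs, a ratio of 1.32 (0.65 to 1.98).

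Smad7 in fibroblast-like cells was 36.5 CPM (907 UMIs) in WT anti-PD1 and 103 CPM (231 UMIs) in WT IgG, a log2 ratio of -1.48 (-1.68 to -1.27). It was lower in both fibroblast-like clusters, by -1.81 (-2.08 to -1.54) in the one led by Smpd3 and Cxcl13 and by -1.08 (-1.41 to -0.75) in the one led by C1qtnf3 and Tnn. In gamma-delta T-like cells Smad7 was 125 against 269 CPM, from 57 and 222 cells, again without the unnamed cluster that scored best for gamma-delta T markers.

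Of 55 pathway genes compared in fibroblast-like cells, none was higher and 9 were lower past 2-fold in WT anti-PD1. Over all 6689 genes of the class, 265 were higher and 338 lower. The target gene Tgfbi, which the limit on other classes left out of this comparison, was higher, at 95.7 CPM (2381 UMIs) against 21.9 CPM (49 UMIs). Ccn2, the connective tissue growth factor gene, was 30.0 against 221 CPM, a log2 ratio of -2.84 (-3.00 to -2.68), with -3.08 in each of the 2 clusters. Timp1, a metalloproteinase inhibitor gene, was 519.5 against 2283 CPM (-2.13). Tgfbr2 in the same cells was higher, but short of 2-fold, with a ratio of 0.45 (0.38 to 0.52), as was the ligand gene Tgfb2, at 0.45 (0.19 to 0.70). Over all classes, 39 of 387 pathway combinations were higher and 35 lower past 2-fold, near the 9.11% and 7.84% of all combinations.

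Between A159V anti-PD1 and A159V IgG, 58 combinations of the 8 genes and a class could be compared, and 1 was higher and 1 lower past 2-fold in A159V anti-PD1, where 3.2% of all 78796 combinations passed, 2.09% higher and 1.11% lower. The lower one was Tgfb3 in the Mmp8 cluster, given above. The higher one was Smad7 in the Slfn4 cluster, at 102 CPM (93 UMIs) against 48.5 CPM (24 UMIs), a log2 ratio of 1.05 (0.42 to 1.69), which left A159V anti-PD1 near the 122 CPM of WT IgG.

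Smaller differences, with intervals apart from 0, were seen for Tgfbi and Tgfbr2. The interval of Tgfbi lay above 0 in 5 of 6 classes and below 0 in 1, a count given without a share over all genes. Its log2 ratio was 0.65 (0.46 to 0.84) in conventional DC-like cells, 0.48 (0.42 to 0.55) in monocyte-like cells, 0.45 (0.30 to 0.60) in the Slfn4 cluster and 0.26 (0.17 to 0.34) in macrophage-like cells, and -0.82 (-1.38 to -0.25) in neutrophil-like cells. Tgfbr2 in fibroblast-like cells was 1156 against 746 CPM, a ratio of 0.63 (0.54 to 0.73). Tgfb2 in the same cells was 29.5 against 46.4 CPM, a ratio of -0.64 (-1.09 to -0.18). None of these passed 2-fold.

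Of the pathway list, 13 of 404 combinations were higher and 10 lower past 2-fold in A159V anti-PD1. In fibroblast-like cells 2 of 53 pathway genes were higher and 5 lower, while of all 6646 genes 105 were higher and 111 lower. Among the 5 were 2 genes of the contractile apparatus: Tagln at 114 against 299 CPM (-1.39) and Acta2 at 167 against 425 CPM (-1.34). Tagln was 131 CPM in the fibroblast-like cells of WT IgG, so A159V IgG was the high library. The fibroblast-like cluster led by C1qtnf3 and Tnn held 66 cells of A159V IgG and 42 of A159V anti-PD1. The part of this difference in the ratios was not tested. In tumor-like cells none of 23 pathway genes passed 2-fold in this comparison, and of all 6210 genes 6 were higher and 2 lower.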

How the data were processed

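Single-cell 3' gene expression was measured in 4 libraries, 1 per group. The deposited files hold raw UMI counts per gene and cell barcode, which the authors made with Cell Ranger (version 5.0.1 in the submitters' processing notes, 7.2.0 per the file headers) on mm10. No column of per-sample values was left out (0 unused).

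Barcodes with 500 or fewer genes were removed, and simulated doublets were used to remove 0.8% of cells per 1000 cells of a library. Counts were scaled to 10000 per cell and logged, and 2000 variable genes without the pathway list, 20 principal components and 20 neighbors gave Leiden clusters at resolution 1. Clusters were named from marker lists, and 5 stayed unnamed, 2 of them among T and NK cells. The 8 genes, the pathway and the marker lists were chosen with earlier results of these data known. UMIs were summed per class and library, log2 ratios used 1 CPM added, and a gene entered with 20 CPM and 20 UMIs in 1 of the libraries compared. Outside the 8, the text names, in a comparison and class, pathway genes among the 3 with the largest ratios past 2-fold, and for each of the 8 genes from the 3 with the highest r among genes of at least 50 CPM in 1 profile. With 1 library per group no test was made. Intervals (95%, exact Poisson or Clopper-Pearson) and the floor of 3 counts cover counting error only. Shares of cells were thinned to 1500 UMIs per cell. The code was tested on simulated data. Alternatives were other cell filters, clusterings, naming by gates, scalings, minimum values and fold limits. Python 3.11.15, numpy 2.4.6, scipy 1.17.1, scikit-learn 1.9.0, igraph 0.11.9, leidenalg 0.10.2 and matplotlib 3.10.9 were used. Some results of the pathway list are not reported here.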

Additional observations from a re-analysis of the deposited data

Results flagged for a closer look

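For 4 combinations of a gene and a class, the log2 ratio of anti-PD1 over IgG lay on opposite sides of 0 in WT and in A159V tumors, with both ratios beyond 1.5-fold. Each group was 1 library, so the difference between the ratios was not tested. The number of combinations searched is not given here. Tgfb1 in neutrophil-like cells had a ratio of 0.61 in WT and -0.81 in A159V, a difference of 1.43. These levels rested on 32, 282, 25 and 26 UMIs in the 4 libraries. The 10 highest cells held 81.3%, 18.4%, 72.0% and 65.4% of them. Separate clusters held most neutrophil-like cells of WT anti-PD1 and of the other libraries. Gdf15 in macrophage-like cells had 1.45 in WT and -1.43 in A159V, a difference of 2.88. Id3, a target gene, in conventional DC-like cells had -1.31 in WT and 2.39 in A159V, a difference of -3.70. Its A159V ratio rested on 54 UMIs in A159V anti-PD1 and 5 in A159V IgG, with an interval of 1.23 to 3.55. Tgm2, a transglutaminase gene, in the same cells had -1.43 in WT and 0.68 in A159V, a difference of -2.11.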

How the results depend on the processing

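No paired analysis was possible because each group had 1 library and all carry the same replicate number, and for the same reason no replicate could be left out. Of the 18 differences past 2-fold in the 8 genes, 4 stayed past it under every alternative that gave a value: Inhba in the Mmp8 cluster, Smad7 in fibroblast-like cells and Tgfbr1 in macrophage-like and neutrophil-like cells, all between WT anti-PD1 and WT IgG. Of these 4, Inhba had a value under 9 alternatives and none under 8, whereas the others had a value under 16 or 17. Tgfbr1 in gamma-delta T-like cells of that comparison reversed under 4 alternatives, to 0.96, 0.89, 1.02 and 0.14. The cause was not tested for any change below, apart from the thresholds, which change the number of combinations by construction. The counts below are given without the combinations compared or the share of all genes past 2-fold under each alternative. They describe the processing and are not results about the genes.

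For A159V IgG over WT IgG, 5 combinations of the 8 genes passed 2-fold. The count was 1 with over 1000 genes per cell, 2 under 10% mitochondrial UMIs, 10 with each library clustered alone, 11 with marker gates, 3 with a minimum of 50, 8 with no minimum, 2 with a 5-fold limit on other classes, 16 at 1.5-fold and 3 with unnamed clusters joined to a class, an alternative chosen after seeing the data. For WT anti-PD1 the 11 became 6 with over 1000 genes, 23 with gates, 7 without cells holding UMIs of another lineage, 19 with no minimum and 18 at 1.5-fold. For A159V anti-PD1 the 2 became 1 with over 1000 genes, doublets kept, resolution 0.5, means of cells, 5 CPM added or a minimum of 50, 0 under 10% mitochondrial UMIs, at resolution 2 or with clusters joined, 5 with gates, 7 with no minimum and 9 at 1.5-fold.

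Over the pathway list, the 23 of A159V IgG became 36 with WT anti-PD1 left out of the clustering, 62 with libraries alone, 57 with gates, 14 with a minimum of 50, 80 with none, 12 with the 5-fold limit, 37 without a limit and 88 at 1.5-fold. With WT anti-PD1 left out, 26 were higher and 10 lower, in place of 5 and 18. The 74 of WT anti-PD1 became 46 with over 1000 genes, 185 with gates, 129 with no minimum, 135 without a limit and 160 at 1.5-fold. The 23 of A159V anti-PD1 became 15 with doublets kept, with WT anti-PD1 left out or with 5 CPM added, 35 with gates, 71 with no minimum, 38 without a limit and 80 at 1.5-fold. The highest class was the same in 62.5% of cases with over 1000 genes or gates and in 45.8% with WT anti-PD1 left out.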
